A study of Mus musculus with 18 samples.

Results

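Integrins are the receptors that fasten epithelial cells to the extracellular matrix, and 35 mouse genes of integrins and of the machinery attached to them were followed through 3 populations sorted from the mammary gland. The genes were chosen by name and role, with earlier results of these data known. They were 12 integrin alpha chains, 7 integrin beta chains, and 16 genes of hemidesmosomes, integrin activation, adaptors and kinases. All 35 were found among the 52489 gene identifiers matched to the annotation, and all passed the filter on low counts. Itga6 and Itgb3 encode CD49f and CD61, the antigens that defined the sort gates, so their levels are described without a test, and counts of genes refer to the other 33.

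The libraries came from 6 nulliparous mice aged 12 weeks, all untreated and all carrying MMTV-Cre, a Cre recombinase transgene driven by the promoter of the mouse mammary tumour virus, which is active in mammary epithelium. No floxed allele is named in the labels, and animals without the transgene were not analysed here. Hormone-sensing luminal cells (HSL) were gated as CD49f low and CD61 negative. Alveolar progenitors (AP) were CD49f low and CD61 positive, and basal cells were CD49f high and CD61 positive. Each population had 6 libraries, numbered as samples 1 to 6.

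An integrin is a pair of an alpha and a beta chain, and the pair decides the ligand: laminins, collagens, or proteins with an RGD motif such as fibronectin and vitronectin. Inside the cell, talins and kindlins bind the beta tail and switch the receptor on, the complex of ILK, PINCH and parvin and adaptors such as vinculin and paxillin couple it to actin, and the kinases FAK and SRC signal from the site. In the mammary gland the basal, myoepithelial layer lies directly on the basement membrane, anchored through hemidesmosomes that join the alpha6-beta4 integrin to keratin filaments. Luminal cells lie mostly inside that layer.

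Total gene counts were 26516293 to 52404937 in HSL, 37391691 to 62505465 in AP and 29899462 to 91095830 in basal libraries. The sorted labels were checked against listed markers. All 6 hormone-sensing markers, led by Prlr and Ly6a, were called higher in HSL than in both other populations. Of 6 progenitor markers, led by Lcn2 and Cd14, all were called lower in HSL than in AP and 5 higher in AP than in basal cells. All 8 basal markers, led by Acta2 and Krt14, were called lower in HSL and AP than in basal cells. Sample 1 stood apart. In all 3 populations its library lay outside the range of the other 5, on the same side, for 2931 of 16471 genes tested (17.8%), and for 6 of the 33 members (18.2%). Dst, Fermt1, Fermt2, Itga2 and Itgb5 were low there and Itgb7 was high. Results that change without sample 1 are given with both values.

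Levels are CPM, counts scaled to a common library size with TMM factors, given as the lowest, median and highest of 6 libraries. Fold changes are log2 ± SE from edgeR, and calls needed an adjusted p below 0.05 over all 16471 genes tested. Most of the adhesion set was lower in the luminal populations than in basal cells. For HSL against basal, 26 of 33 members were called lower and 3 higher, where 30.6% and 27.8% of all genes tested were called lower and higher. For AP against basal, 21 were called lower and 3 higher, against a background of 23.1% and 21.5%. For HSL against AP, 8 were called lower and 8 higher, or 24.2% each way. These shares were near the 20.1% and 19.8% of all genes. These are bulk samples, in which fewer cells expressing a gene and less RNA per cell cannot be told apart.

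The 33 had a median log2 fold change of -1.10 for HSL against basal, -1.13 for AP against basal and -0.27 for HSL against AP. Over all genes tested the same medians were -0.06, -0.00 and -0.01. Counting members whose libraries did not overlap, 16 lay lower and 2 higher in HSL than in basal libraries, beside 20.1% and 16.8% of all genes. In AP, 17 lay lower and 0 higher than in basal libraries, beside 14.4% and 11.5%. Between HSL and AP, 6 lay lower and 4 higher in HSL, beside 11% and 9.56%. The mean level was highest in basal cells for 25 of the 33, in HSL for Itga10, Itgb5, Plec and Ptk2, and in AP for Itga2, Itgb6, Itgb7 and Tln2. Without sample 1, 26 members were called lower and 4 higher for HSL against basal, 23 and 2 for AP against basal, and 10 and 9 for HSL against AP. All genes called in that fit were 34.5% lower and 30.3% higher for HSL against basal, 25.7% and 25.1% for AP against basal, and 24.7% and 23.3% for HSL against AP.

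**Figure D1:**
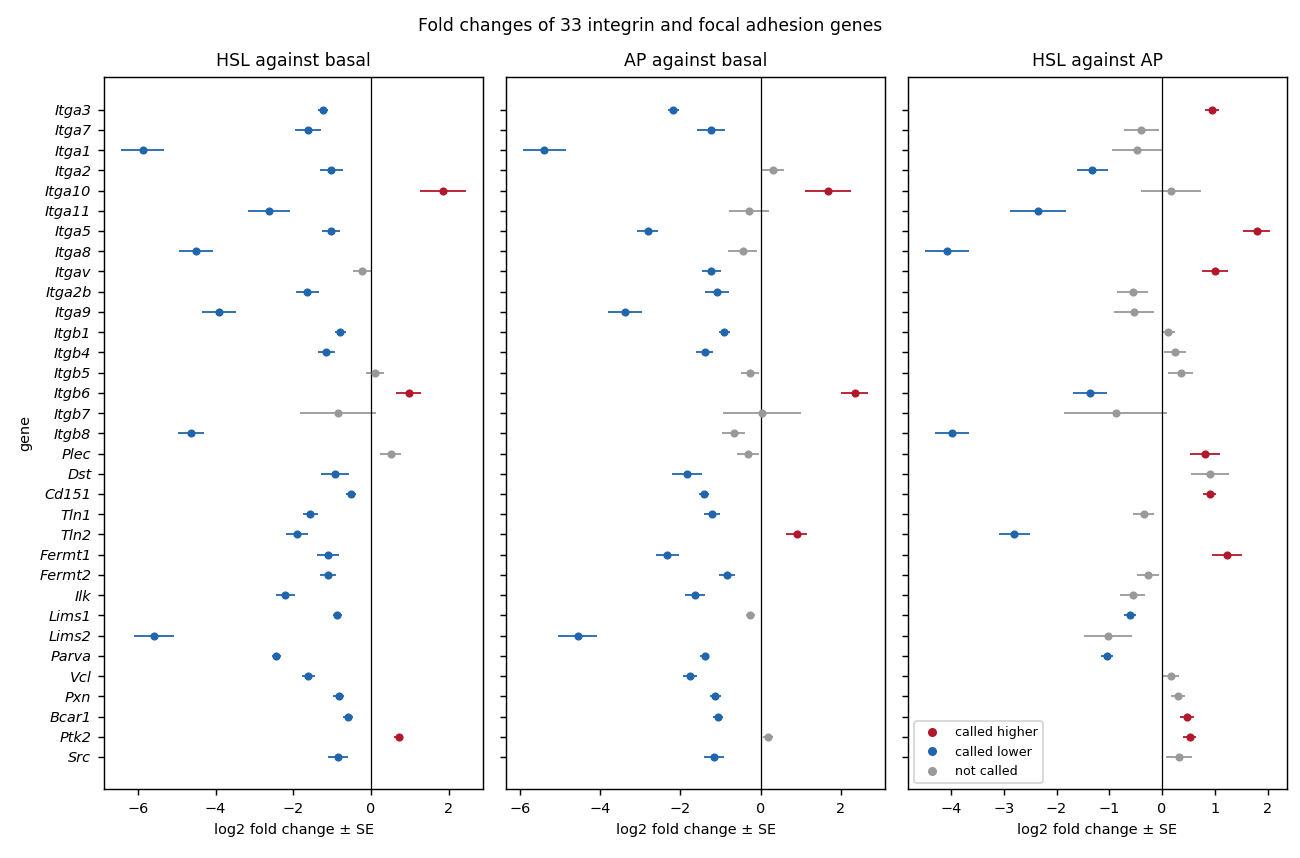
Log2 fold change ± SE (x axis, edgeR, 6 libraries per population) of 33 integrin and focal adhesion genes (y axis, by role) for HSL against basal, AP against basal and HSL against AP; blue marks genes called lower, red called higher, grey not called. The left and middle panels lie mostly left of 0, with 26 and 21 genes called lower, while the right panel has 8 on each side.

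The promoters of 3 members are shown as examples of the patterns described next: Vcl and Fermt2 were lower in both luminal populations, and Itgb6 was highest in AP. Sequences are from RefSeq, build GRCm38.p6, 5′ to 3′ on the gene's strand, from 250 bases before to 50 after the RefSeq start. Capitals mark matches on either strand to 6 motifs. The GC box was searched as GGGCGG, the E-box as CAGGTG, the AP-1 site as TGANTCA, the TEAD site as GGAATG and the TATA box as TATAAA, and the last was the CArG box, the site of serum response factor. The motifs and these 3 genes were chosen after the values were seen.
Vcl, chr14:20929148-20929447, plus strand: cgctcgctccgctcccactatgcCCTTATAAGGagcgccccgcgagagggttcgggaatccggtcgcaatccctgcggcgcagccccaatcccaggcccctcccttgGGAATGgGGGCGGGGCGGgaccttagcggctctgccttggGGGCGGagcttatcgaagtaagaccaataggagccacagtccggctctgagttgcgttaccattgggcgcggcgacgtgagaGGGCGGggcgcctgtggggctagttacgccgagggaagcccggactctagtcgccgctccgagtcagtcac
Fermt2, chr14:45530016-45530315, minus strand: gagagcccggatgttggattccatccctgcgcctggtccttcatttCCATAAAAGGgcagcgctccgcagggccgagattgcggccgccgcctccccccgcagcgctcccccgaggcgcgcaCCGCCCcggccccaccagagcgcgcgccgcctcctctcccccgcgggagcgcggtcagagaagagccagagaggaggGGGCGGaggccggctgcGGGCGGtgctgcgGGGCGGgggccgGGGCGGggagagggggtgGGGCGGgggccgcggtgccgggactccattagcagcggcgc
Itgb6, chr2:60722554-60722853, minus strand: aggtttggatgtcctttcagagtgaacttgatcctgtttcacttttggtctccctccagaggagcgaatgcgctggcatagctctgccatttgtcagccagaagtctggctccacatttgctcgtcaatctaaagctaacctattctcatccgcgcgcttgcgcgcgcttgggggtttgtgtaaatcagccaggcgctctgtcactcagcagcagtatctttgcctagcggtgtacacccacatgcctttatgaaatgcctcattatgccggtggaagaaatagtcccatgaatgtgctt
The Vcl window held 1 CArG box, 1 TEAD site and 4 GC boxes, of which 2 overlap each other. The Fermt2 window held 1 CArG box and 6 GC boxes. None of these letters occurred in the Itgb6 window. The RefSeq start was the GENCODE start for Vcl, and lay 53 bases downstream of it for Fermt2 and 40 for Itgb6. A start for 25 of the 35 members was in the RefSeq table, and 4 of these windows (Dst, Itga9, Itgb8 and Src) lay wholly downstream of the GENCODE start. Of these 25 windows, 14 held a GC box, against 35.7% of all 32841 windows, 7 an E-box against 20.2%, 3 a TEAD site against 14.7%, 2 a CArG box (Fermt2 and Vcl) against 1.63%, 1 an AP-1 site against 7.81%, and 0 a TATA box against 13.6%. The median G and C content was 64.3% in the members' windows and 52.7% in all windows. A match is a run of letters and not a measured binding site.

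The sort antigens followed the gates. Itga6, the alpha6 chain of laminin receptors, was at 157, 275 and 356 CPM in HSL, 196, 207 and 247 CPM in AP, and 498, 711 and 800 CPM in basal libraries. Every basal library lay above every luminal one, and HSL and AP overlapped. Itgb3, the beta3 chain of the vitronectin receptor, was at 0.11, 0.639 and 1.59 CPM in HSL, 16.7, 41.5 and 75.3 CPM in AP, and 79.6, 95.4 and 119 CPM in basal libraries. No populations overlapped, and AP lay between HSL and basal cells.

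Among the laminin-binding alpha chains, Itga3 separated all 3 populations. Itga3 pairs with beta1 to bind the laminins of the epithelial basement membrane. It was at 131, 149 and 169 CPM in HSL, 48.5, 80.9 and 91.9 CPM in AP, and 307, 353 and 394 CPM in basal libraries. The order was basal, then HSL, then AP, with no overlap between any pair. The log2 fold change was -1.24 ± 0.13 for HSL against basal (adjusted p = 3.16e-07), -2.18 ± 0.14 for AP against basal (6.64e-10) and 0.94 ± 0.13 for HSL against AP (2.47e-05). Itga7, the laminin receptor chain best known from muscle, was scarce at 0.847, 2.75 and 3.77 CPM in HSL, 1.55, 3.86 and 4.41 CPM in AP, and 3.46, 8.56 and 11.2 CPM in basal libraries. It was called lower in HSL (-1.63 ± 0.34, adjusted p = 0.000456) and in AP (-1.24 ± 0.34, 0.00536) than in basal cells, with some overlap of libraries.

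The 4 collagen-binding alpha chains followed 3 patterns of calls, which Itga2 and Itga11 shared and Itga1 and Itga10 did not. Itga1, which prefers basement membrane collagen, was at 0.374, 1.38 and 2.44 CPM in HSL, 0.3, 2.02 and 4.09 CPM in AP, and 35.6, 93.3 and 133 CPM in basal libraries. Basal libraries lay far above both others, and HSL and AP overlapped. Itga1 had the largest fall of the 33 in both contrasts with basal cells, at -5.88 ± 0.55 for HSL (adjusted p = 4.85e-08) and -5.40 ± 0.53 for AP (1.68e-07). Its span shares 44.8% with other genes, Pelo among them, so its level is uncertain.

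Itga2, the alpha chain of the main epithelial receptor for fibrillar collagen, was at 6.28, 15.1 and 19.1 CPM in HSL, 15.3, 40.9 and 46 CPM in AP, and 18.9, 27 and 44.1 CPM in basal libraries. Calls were lower in HSL than in AP (-1.32 ± 0.30, adjusted p = 0.00175) and than in basal cells (-1.02 ± 0.30, 0.00663), and AP against basal gave 0.30 ± 0.29 (0.43). The lowest library of each population was that of sample 1. Without sample 1 the Itga2 calls stayed as they were. Itga11, a collagen receptor chain known from fibroblasts, was at 0.0627, 0.471 and 0.512 CPM in HSL, 0.944, 1.4 and 4.9 CPM in AP, and 0.448, 2.77 and 3.03 CPM in basal libraries. All HSL libraries lay below all AP libraries, and the fold change was -2.35 ± 0.53 for HSL against AP (adjusted p = 0.00185) and -2.63 ± 0.54 for HSL against basal (0.000381). Of 8 fibroblast markers, 8 were called lower in HSL than in AP and 8 lower than in basal cells. Their summed level was 40.3 to 116 CPM in HSL, 626 to 1595 CPM in AP and 733 to 1137 CPM in basal libraries, with none at 0, and their part in the Itga11 result was not tested.

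Itga10, a collagen receptor chain known from cartilage, was scarce, at 0.44, 0.575 and 1.06 CPM in HSL, 0.0789, 0.345 and 1.25 CPM in AP, and 0.0448, 0.119 and 0.345 CPM in basal libraries. It rested on 11 to 60 reads per HSL library, 5 to 65 per AP library and 2 to 16 per basal library, and shares 39.7% of its span with other genes. All HSL libraries lay above all basal ones (1.85 ± 0.59, adjusted p = 0.0117). The AP libraries overlapped the basal ones, and the call for AP against basal (1.68 ± 0.58, 0.025) was lost without sample 1 (1.08, 0.127) and with sample number as a block (0.0796) or limma-voom (0.0829), as well as without sample 2, 5 or 6.

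Of the RGD-binding alpha chains, Itga8 had the widest gap between the luminal populations. Itga8 pairs with beta1 to bind nephronectin and other RGD proteins. It was at 2.66, 5.3 and 9.26 CPM in HSL, 23.7, 96.1 and 147 CPM in AP, and 61.4, 140 and 170 CPM in basal libraries. HSL lay below every AP and basal library, while AP and basal libraries overlapped. The fold change was -4.07 ± 0.42 for HSL against AP (adjusted p = 1.08e-06) and -4.51 ± 0.43 for HSL against basal (7.2e-08). AP against basal gave -0.45 ± 0.37 (0.351), with AP the lower in all 6 sample numbers. The 8 fibroblast markers given above were also called lower in HSL than in both others, and their part in the Itga8 result was not tested.

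Itga5, the fibronectin receptor chain, ran in another order. It was at 38.7, 49.2 and 64.9 CPM in HSL, 7.44, 11.7 and 24.6 CPM in AP, and 76.1, 97.5 and 134 CPM in basal libraries. The populations did not overlap, with AP lowest and basal cells highest. Itga5 was called higher in HSL than in AP (1.79 ± 0.25, adjusted p = 1.85e-05), and lower than in basal cells in both HSL (-1.03 ± 0.24, 0.00133) and AP (-2.82 ± 0.26, 6.07e-08). Itgav, which pairs with several beta chains to bind vitronectin, fibronectin and latent TGF-beta, was at 197, 405 and 619 CPM in HSL, 131, 190 and 299 CPM in AP, and 396, 453 and 565 CPM in basal libraries. AP libraries all lay below basal ones (-1.23 ± 0.24, adjusted p = 0.000333), HSL was called higher than AP with overlap (1.00 ± 0.24, 0.00249), and HSL against basal gave -0.23 ± 0.23 (0.41). The Itgav span shares 26.8% with other genes.

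Itga2b, the alpha chain of the platelet fibrinogen receptor, was at 2.35, 4.09 and 5.84 CPM in HSL, 3.14, 6.02 and 9.15 CPM in AP, and 6.52, 13.4 and 18.4 CPM in basal libraries. Itga2b was called lower in HSL (-1.64 ± 0.30, adjusted p = 0.000108) and AP (-1.09 ± 0.29, 0.00502) than in basal cells. The 7 platelet markers summed to 1 to 3.99 CPM in HSL, 0.316 to 2.6 CPM in AP and 5.91 to 28 CPM in basal libraries. The basal sums were mostly Pf4. The part of these markers in the result was not tested. Only 2 of the 7 passed the filter: Pf4, a platelet chemokine, was at a median of 0.916 CPM in HSL, 0.771 CPM in AP and 11.1 CPM in basal libraries, and Gp5 at 1, 0.198 and 0.146 CPM in the same order. Gp5 went the other way from Itga2b and was called higher in HSL than in basal cells (2.57 ± 0.94, adjusted p = 0.0258). HSL against AP gave -0.56 ± 0.29 for Itga2b (adjusted p = 0.137), called without sample 1 (0.0467) and with the block (0.0376).

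Itga9, which pairs with beta1 to bind tenascin C and other ligands, marked the basal libraries. It was at 3.73, 5.82 and 23.8 CPM in HSL, 7.52, 13.6 and 19.6 CPM in AP, and 87.8, 131 and 185 CPM in basal libraries. The lowest basal library was above every luminal one. Itga9 fell by 3.91 ± 0.43 on the log2 scale in HSL (adjusted p = 3.55e-07) and by 3.38 ± 0.42 in AP (2.53e-06). HSL against AP gave -0.53 ± 0.38 (0.294), and was called lower without sample 2 (0.0183), whose HSL library held the 23.8 CPM.

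**Figure D2:**
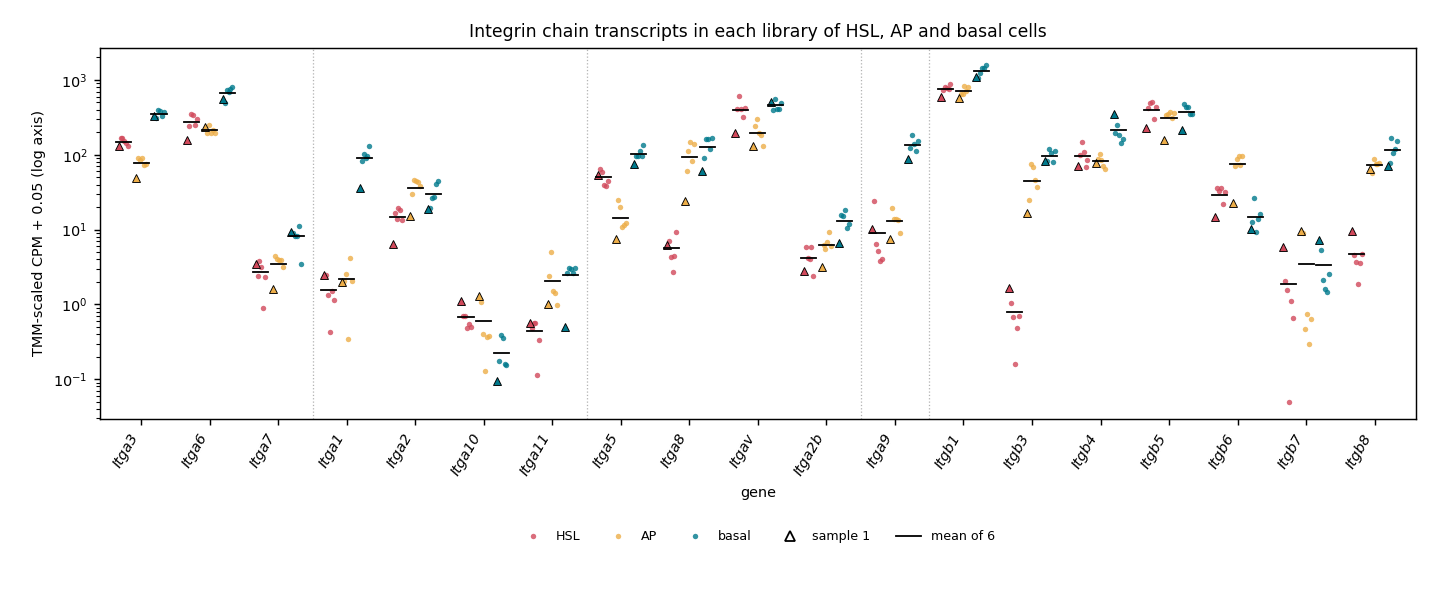
Level of each integrin chain (TMM-scaled CPM plus 0.05, log axis) in each of 18 libraries, with HSL, AP and basal side by side for each gene, triangles for sample 1 and bars for the mean of 6. Itga1 and Itga9 stand high in basal libraries alone, Itga8 and Itgb8 are low in HSL, and Itgb6 peaks in AP at a median of 79.7 CPM.

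Beta chains decide which signalling and linker proteins an integrin can reach, and Itgb1, the partner of most alpha chains, was by far the most abundant of them per exon length. Per kilobase of exon, Itgb1 averaged 187 CPM in HSL, 172 CPM in AP and 323 CPM in basal cells, and Itgb5 came next at 112, 88.2 and 106 CPM in the same order. Itgb1 was at 586, 773 and 889 CPM in HSL, 569, 687 and 818 CPM in AP, and 1075, 1338 and 1600 CPM in basal libraries. Both luminal populations lay wholly below basal cells, at -0.79 ± 0.14 for HSL (adjusted p = 6.62e-05) and -0.91 ± 0.14 for AP (2.47e-05), and HSL against AP gave 0.12 ± 0.13 (0.525), or -0.07 when scaled by total counts.

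Itgb4, the hemidesmosome partner of alpha6, was at 69.5, 92.5 and 148 CPM in HSL, 65.1, 82.1 and 102 CPM in AP, and 144, 191 and 352 CPM in basal libraries. It was called lower in HSL (-1.15 ± 0.22, adjusted p = 0.000184) and AP (-1.40 ± 0.22, 3.96e-05) than in basal cells, with AP and basal libraries apart. Itgb5, a vitronectin receptor chain that pairs with alphav, was at 230, 431 and 504 CPM in HSL, 157, 344 and 369 CPM in AP, and 212, 392 and 471 CPM in basal libraries. The populations overlapped and no contrast was called, at 0.09 ± 0.23 for HSL against basal (adjusted p = 0.766), -0.26 ± 0.23 for AP against basal (0.384) and 0.35 ± 0.23 for HSL against AP (0.247). Sample 1 was lowest in each population, and with sample number as a block Itgb5 was called lower in AP than in basal cells (0.0202) and higher in HSL than in AP (0.00501).

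Itgb8 and Itgb6, which both pair with alphav and are known for activating latent TGF-beta, differed in direction for HSL against basal, and both were called lower in HSL than in AP. Itgb8 was at 1.83, 4.09 and 9.47 CPM in HSL, 57.1, 74.9 and 88.6 CPM in AP, and 70.1, 113 and 168 CPM in basal libraries. Every HSL library lay below every other library. The fold change was -4.64 ± 0.34 for HSL against basal (adjusted p = 2.24e-09) and -3.98 ± 0.33 for HSL against AP (1.65e-07). AP against basal gave -0.67 ± 0.29 (0.0704), which became -0.73 and was called without sample 1 (0.0137).

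Itgb6 was at 14.9, 32.2 and 35.5 CPM in HSL, 22.9, 79.7 and 96.6 CPM in AP, and 9.31, 13.2 and 26 CPM in basal libraries. The AP library of sample 1 held the 22.9 CPM, and the other 5 AP libraries lay between 71 and 96.6 CPM, above all HSL and basal libraries. Itgb6 was called higher in AP than in basal cells (2.35 ± 0.33, adjusted p = 1.14e-05), lower in HSL than in AP (-1.37 ± 0.32, 0.00209) and higher in HSL than in basal cells (0.97 ± 0.32, 0.0133). That last call was lost without sample 2 (0.064), 4 (0.0666) or 6 (0.0544). Itgb7, a chain of lymphocyte integrins, was at 0, 1.28 and 5.84 CPM in HSL, 0.249, 0.641 and 9.59 CPM in AP, and 1.43, 2.28 and 7.17 CPM in basal libraries, with the highest value of each population in sample 1 and no call. The 8 leukocyte markers, led by Lyz2 and Csf1r, summed to 4.78 to 209 CPM in HSL, 5.42 to 139 CPM in AP and 75.3 to 401 CPM in basal libraries, with 1 called lower in HSL and 2 in AP than in basal cells.

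Hemidesmosome genes differed in pattern. Plec encodes plectin, which ties alpha6-beta4 to keratin filaments and is also used at other junctions. It was at 135, 264 and 330 CPM in HSL, 53.4, 145 and 214 CPM in AP, and 91.1, 200 and 221 CPM in basal libraries. HSL was called higher than AP, with overlap (0.81 ± 0.28, adjusted p = 0.0282), a call lost without sample 3, 4, 5 or 6 (0.0543 to 0.134), when scaled by total counts (0.0581) and with no filter on low counts (0.0624). HSL against basal gave 0.50 ± 0.28 (0.134), and was called without sample 1 (0.54, 0.0311) and with the block (0.0239). AP against basal gave -0.31 ± 0.28 (0.394).

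Dst encodes dystonin, whose epithelial form BPAG1 is a hemidesmosome plaque protein. It was at 88.9, 118 and 162 CPM in HSL, 19.9, 67 and 103 CPM in AP, and 66.8, 294 and 348 CPM in basal libraries. The lowest value of each population was that of sample 1, whose basal library lay among the AP libraries, and the basal library of sample 2, at 142 CPM, lay among the HSL ones. Dst was called lower than in basal cells in AP (-1.84 ± 0.37, adjusted p = 0.00044) and in HSL (-0.93 ± 0.36, 0.0321). The HSL call was lost without any 1 of samples 2 to 6 (0.0502 to 0.132) and with limma-voom (0.0945), and held without sample 1. HSL against AP gave 0.91 ± 0.36 (0.0509), and was called without sample 1 (0.78, 0.00536) and with the block (0.00163). Cd151, a tetraspanin that binds laminin-binding integrins, was at 38.2, 41.1 and 51.3 CPM in HSL, 20, 21.2 and 28.2 CPM in AP, and 49, 60.7 and 72.6 CPM in basal libraries. It took the same order as Itga3, though HSL and basal libraries overlapped, with fold changes of -0.52 ± 0.13 for HSL against basal (adjusted p = 0.00158), -1.42 ± 0.13 for AP against basal (4.81e-08) and 0.90 ± 0.13 for HSL against AP (2.09e-05).

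Among the integrin activators, the talins were called in opposite directions for AP against basal. Both kindlins were called lower in HSL and AP than in basal cells. Tln1, the widely used talin, was at 107, 154 and 191 CPM in HSL, 121, 181 and 267 CPM in AP, and 304, 441 and 570 CPM in basal libraries. Basal libraries all lay above luminal ones, at -1.56 ± 0.20 for HSL (adjusted p = 3.33e-06) and -1.21 ± 0.20 for AP (8.71e-05). Tln2, the second talin gene, was at 5.88, 7.1 and 19.1 CPM in HSL, 43.2, 63.8 and 83.1 CPM in AP, and 23.7, 33.7 and 49.1 CPM in basal libraries. HSL lay below every AP and basal library, and AP tended to the top with some overlap with basal cells. Tln2 was called lower in HSL than in AP (-2.80 ± 0.29, adjusted p = 8.81e-07) and than in basal cells (-1.91 ± 0.28, 1.06e-05), and higher in AP than in basal cells (0.90 ± 0.27, 0.0108), a call lost without sample 6 (0.0584).

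Fermt1 encodes kindlin-1, the epithelial kindlin. It was at 23.2, 68.7 and 122 CPM in HSL, 21.8, 28.8 and 37.9 CPM in AP, and 104, 147 and 180 CPM in basal libraries. AP lay wholly below basal cells (-2.33 ± 0.29, adjusted p = 3.31e-06), and HSL overlapped both, at -1.10 ± 0.28 against basal (0.00263) and 1.23 ± 0.28 against AP (0.00207). Fermt2 encodes kindlin-2, which is widely expressed. It was at 47.3, 81 and 127 CPM in HSL, 69.3, 108 and 122 CPM in AP, and 110, 203 and 223 CPM in basal libraries, where sample 1 held the lowest value of each. Fermt2 was called lower than in basal cells in HSL (-1.11 ± 0.21, adjusted p = 0.000207) and AP (-0.84 ± 0.21, 0.00323), and HSL against AP gave -0.27 ± 0.21 (0.332).

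The 4 genes of the ILK, PINCH and parvin complex were all called lower in HSL than in basal cells. Parva, which encodes the actin-binding alpha-parvin, was at 139, 157 and 177 CPM in HSL, 279, 323 and 379 CPM in AP, and 698, 877 and 932 CPM in basal libraries. The populations formed 3 separate steps. Parva had the smallest adjusted p of the 33 for HSL against basal, at -2.44 ± 0.11 (8.2e-12), with -1.40 ± 0.11 for AP against basal (5.65e-09) and -1.04 ± 0.11 for HSL against AP (7.63e-07). It was the only member called lower in all 3 contrasts.

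Lims1 encodes PINCH1 and was at 68.3, 77.1 and 89.8 CPM in HSL, 105, 114 and 140 CPM in AP, and 121, 137 and 172 CPM in basal libraries. HSL lay below both others, at -0.87 ± 0.11 against basal (adjusted p = 1.78e-06) and -0.61 ± 0.11 against AP (0.00021). AP against basal gave -0.26 ± 0.11 (0.0594), and was called without sample 1 (-0.34, 0.0104) and with the block (0.0364). Lims2, which encodes PINCH2, was at 0.33, 1.25 and 2.29 CPM in HSL, 1.06, 2.54 and 4.31 CPM in AP, and 11.8, 63.3 and 100 CPM in basal libraries. All basal libraries lay above all luminal ones, sample 1 being the lowest of them. Lims2 fell by 5.59 ± 0.52 on the log2 scale in HSL (adjusted p = 5.28e-08) and by 4.57 ± 0.49 in AP (5.47e-07). HSL against AP gave -1.02 ± 0.45 (0.0808), and -1.32 without sample 1, which was called (0.0101). The span of Lims2 shares 18.3% with other genes.

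Ilk, the pseudokinase at the centre of the complex, was listed at 0.823, 1.06 and 1.81 CPM in HSL, 1.31, 1.67 and 2.57 CPM in AP, and 4.82, 5.37 and 6.6 CPM in basal libraries. It shares 68.3% of its span with Rrp8 and Taf10, so these low levels are uncertain and are not compared with other genes. Calls were lower in HSL (-2.21 ± 0.24, adjusted p = 3.33e-07) and AP (-1.64 ± 0.24, 1.43e-05) than in basal cells.

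The 3 adaptors were called lower in both luminal populations. Vcl encodes vinculin, which reinforces the bond of talin to actin under tension. It was at 141, 164 and 247 CPM in HSL, 118, 161 and 216 CPM in AP, and 410, 534 and 693 CPM in basal libraries. HSL and AP shared a range well below basal cells, at -1.62 ± 0.17 for HSL (adjusted p = 2.83e-07) and -1.77 ± 0.17 for AP (1.59e-07). Pxn, which encodes the scaffold paxillin, was at 137, 162 and 220 CPM in HSL, 122, 127 and 175 CPM in AP, and 234, 303 and 361 CPM in basal libraries, also with no overlap with basal cells. Its fold change was -0.83 ± 0.14 for HSL (adjusted p = 6.23e-05) and -1.13 ± 0.14 for AP (3.3e-06). Bcar1 encodes the stretch-sensitive scaffold p130Cas and was at 90.8, 106 and 158 CPM in HSL, 75.6, 78.9 and 109 CPM in AP, and 157, 178 and 202 CPM in basal libraries. It was called lower than in basal cells in HSL (-0.60 ± 0.13, adjusted p = 0.000632) and AP (-1.07 ± 0.13, 2.26e-06), and higher in HSL than in AP (0.47 ± 0.13, 0.00736), the last lost without sample 6 (0.0544) and when scaled by total counts (0.29, 0.0708).

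The 2 kinases went different ways. Ptk2 encodes focal adhesion kinase and was at 165, 180 and 225 CPM in HSL, 111, 130 and 159 CPM in AP, and 89.9, 117 and 138 CPM in basal libraries. Every HSL library lay above every AP and basal library. The fold change was 0.71 ± 0.12 for HSL against basal (adjusted p = 5.61e-05) and 0.52 ± 0.12 for HSL against AP (0.00194), while AP against basal gave 0.19 ± 0.12 (0.22). Src was at 35.8, 42.9 and 76.9 CPM in HSL, 22.6, 36.4 and 59 CPM in AP, and 67.9, 89.8 and 123 CPM in basal libraries. Src was called lower in HSL (-0.85 ± 0.25, adjusted p = 0.00639) and AP (-1.17 ± 0.25, 0.000777) than in basal cells.

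A block on sample number, which pairs the 3 libraries of each number, gave calls in HSL against AP for 12 members lower and 12 higher in place of 8 and 8. Calls over all genes increased too, to 25.3% lower and 25.6% higher. For HSL against basal the block called 26 members lower and 4 higher, beside 35.5% and 31.8% of all genes, and for AP against basal 23 and 2, beside 28.4% and 26.7%. Beyond Dst, Itgb5 and Itga2b, the members added were Pxn (adjusted p = 0.00447) and Src (0.0151), both higher in HSL, and Tln1 (0.00927), Fermt2 (0.0224) and Ilk (0.0479), all lower in HSL.

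**Figure D3:**
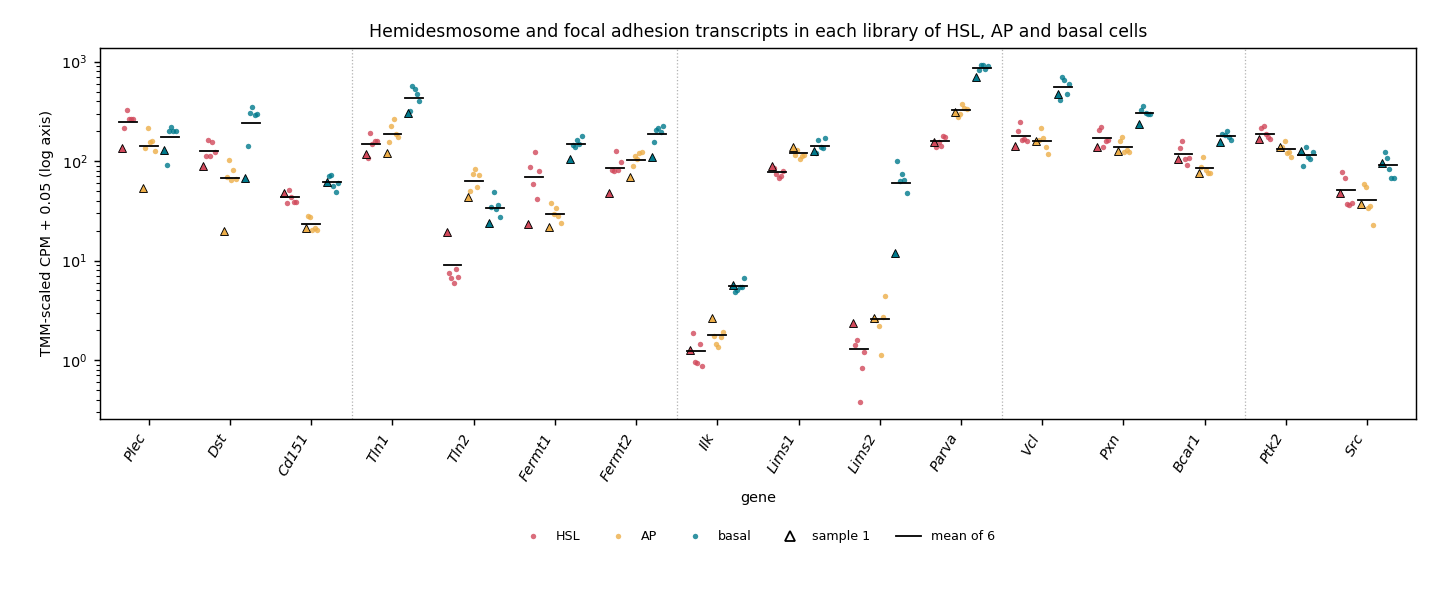
Level of the hemidesmosome, activator, adaptor and kinase genes (TMM-scaled CPM plus 0.05, log axis) in each of 18 libraries, with HSL, AP and basal side by side, triangles for sample 1 and bars for the mean of 6. Parva forms 3 steps with medians of 157, 323 and 877 CPM in HSL, AP and basal libraries, Ptk2 is highest in HSL, and Tln2 is highest in AP.

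Ratios of 2 members within a library do not depend on scaling between libraries. The 9 pairs compared were also chosen with earlier results of these data known. They were compared by an exact two-sided permutation test, whose smallest p with 6 against 6 libraries is 0.00216. Of the 27 comparisons, 18 were called after Benjamini-Hochberg adjustment over all 27. Ratios of other gene pairs were not tested, so this count has no background share and says nothing particular to these pairs. The pair of TGF-beta activating chains, Itgb6 over Itgb8, separated all 3 populations. Its ratio of counts was 1.58, 7.26 and 19.3 in HSL, 0.356, 1.1 and 1.3 in AP, and 0.0883, 0.129 and 0.162 in basal libraries. No populations overlapped. The log2 ratio differed by 5.74 between HSL and basal, 2.90 between AP and basal and 2.83 between HSL and AP libraries, each at an exact adjusted p = 0.0039, the smallest reached here.

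The talin ratio set AP apart. Tln2 over Tln1 was 0.0348, 0.0467 and 0.161 in HSL, 0.292, 0.327 and 0.419 in AP, and 0.0617, 0.0767 and 0.108 in basal libraries. All AP libraries lay above the others, by 2.11 on the log2 scale for AP against basal and with HSL against AP at -2.57 (exact adjusted p = 0.0039 for both). HSL against basal gave -0.46 (0.289), and -0.76 without sample 1, which was called (0.0338). Itga2 over Itga3, a collagen against a laminin receptor chain, was 0.0474, 0.101 and 0.127 in HSL, 0.315, 0.497 and 0.592 in AP, and 0.0572, 0.0694 and 0.123 in basal libraries. Here too AP stood alone, at 2.49 for AP against basal and -2.28 for HSL against AP (exact adjusted p = 0.0039 for both).

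The kindlin ratio was low in AP. Fermt1 over Fermt2 was 0.491, 0.77 and 1.08 in HSL, 0.196, 0.288 and 0.42 in AP, and 0.678, 0.783 and 0.951 in basal libraries, so HSL overlapped basal cells and AP did not overlap either. AP against basal gave -1.51 and HSL against AP 1.37 (exact adjusted p = 0.0039 for both), and HSL against basal -0.14 (0.528). Lims2 over Lims1 was 0.00499, 0.0154 and 0.0256 in HSL, 0.0101, 0.0202 and 0.0379 in AP, and 0.0941, 0.429 and 0.829 in basal libraries. The PINCH ratio was thus high in basal cells, at -4.69 for HSL and -4.17 for AP (exact adjusted p = 0.0039 for both).

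Itga3 over Itgb1 was lower in HSL (-0.46, exact adjusted p = 0.0103) and AP (-1.31, 0.0039) than in basal cells and higher in HSL than in AP (0.85, 0.0039), so the laminin receptor chain changed by more than its partner. Itgb5 over Itgb8 was higher in HSL, by 4.82 against basal and 4.49 against AP (exact adjusted p = 0.0039 for both). Dst over Plec was 0.422, 0.51 and 0.658 in HSL, 0.373, 0.494 and 0.516 in AP, and 0.515, 1.5 and 1.57 in basal libraries. The lowest basal value came from sample 1. The difference was -1.28 for HSL (exact adjusted p = 0.013) and -1.45 for AP (0.00731), and the call for HSL was lost when sample numbers were treated as pairs (0.0888). For Itgb4 over Itgb1 no difference was called, with HSL at -0.35 against basal (exact adjusted p = 0.324) and 0.10 against AP (0.636), and AP at -0.45 against basal (0.265). The AP contrast was called when sample numbers were treated as pairs (0.0469). That paired test can call a difference only where every sample number goes the same way, whatever the sizes. Itgb4 over Itgb1 was lower in AP in every sample number, but by little in sample 5 (log2 ratio -3.353 in AP, -3.331 in basal). Dst over Plec was higher in HSL than in basal cells in sample 1 alone (-0.604 and -0.958), so that test could not call it.

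**Figure D4:**
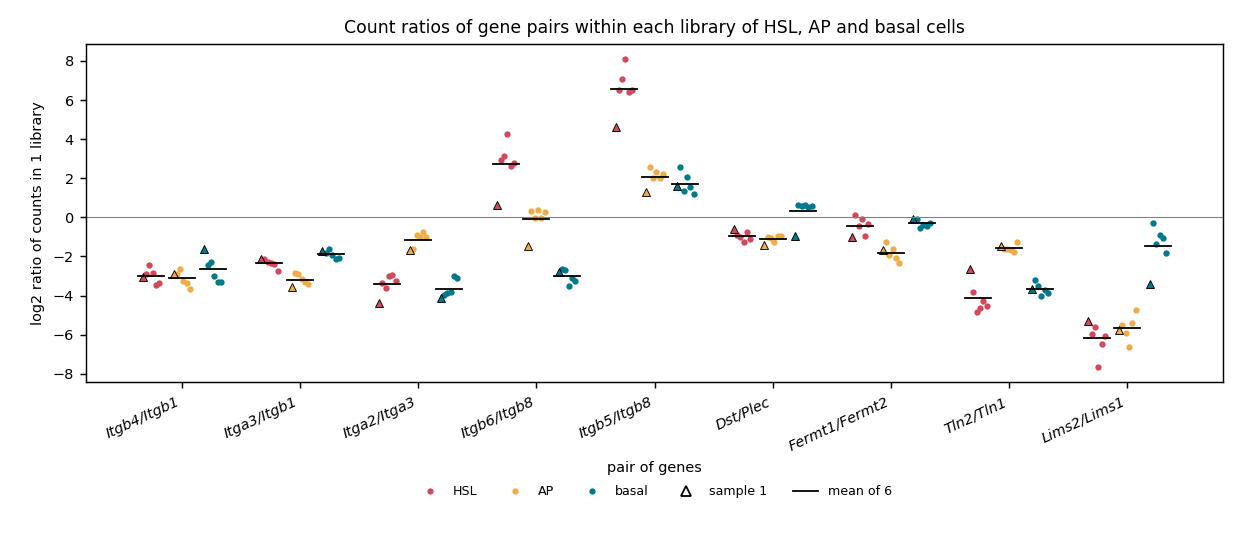
Log2 ratio of the counts of 2 genes within a library (y axis) for 9 pairs (x axis), 1 point per library of HSL, AP and basal cells, triangles for sample 1 and bars for the mean of 6. Itgb6/Itgb8 steps down through medians of 7.26 in HSL, 1.1 in AP and 0.129 in basal libraries as plain ratios, and Tln2/Tln1 is high in AP at a mean log2 ratio of -1.57.

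When levels were divided by exon length and summed over the chains, the make-up of the integrin transcripts differed between populations. These shares are descriptions, with the sort antigens included. Itgav made up 32.9% ± 5.19 of the alpha chains in HSL, 22.6% ± 4.40 in AP and 17.6% ± 2.98 in basal cells (SD, n = 6). Itga8 made up 0.740% ± 0.361 in HSL, 15.3% ± 7.17 in AP and 6.84% ± 1.70 in basal cells. Itga9 was at 1.10%, 2.07% and 6.97% in the same order, and Itga2 at 1.88%, 6.22% and 1.65%. Itgb1 made up 59.2% ± 5.0 of the beta chains in HSL, 58.2% ± 4.88 in AP and 65.7% ± 5.24 in basal cells. Itgb5 made up 34.8% ± 4.63, 29.2% ± 4.26 and 21.6% ± 5.18 in the same order. The beta chain transcripts were thus mostly Itgb1 and Itgb5 in all 3 populations. Itgb8 was at 0.146% in HSL, 2.25% in AP and 2.11% in basal cells, and Itgb6 at 1.24%, 3.39% and 0.42%.

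**Figure D5:**
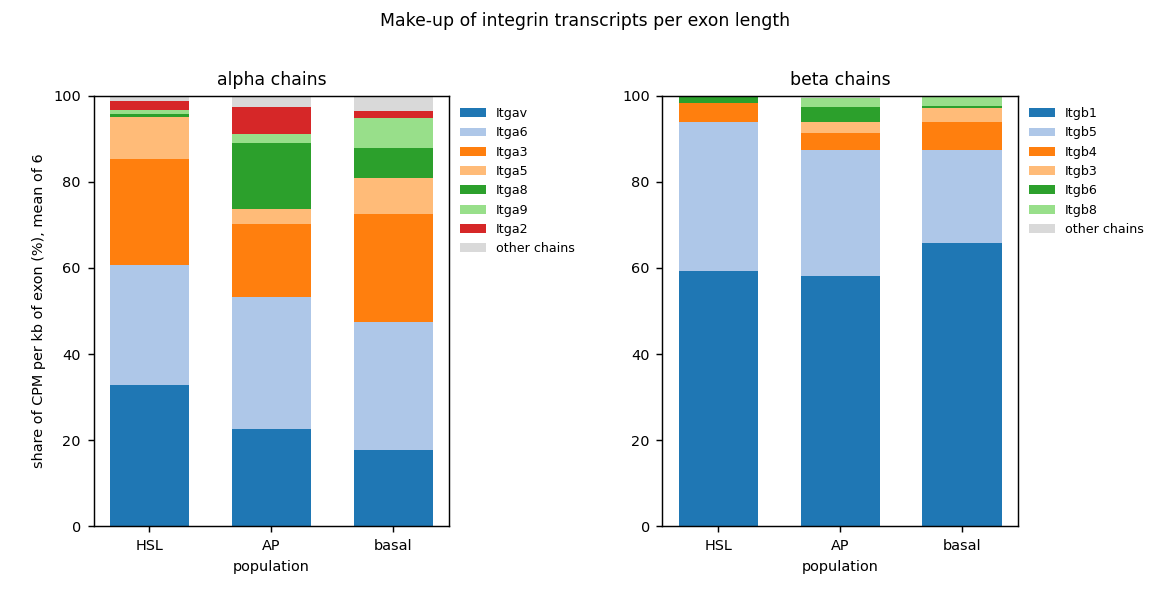
Mean share (%) of each chain in the CPM per kilobase of exon summed over 12 alpha chains (left) and 7 beta chains (right) in HSL, AP and basal cells, mean of 6 libraries each. Itga8 fills 15.3% of the alpha chains in AP and 0.740% in HSL, and Itgb1 fills over 58% of the beta chains in each population.

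The ligands of these receptors are given as counts over lists of genes, with the named genes among the most abundant of each. The shares of all genes called, given above for each contrast, are the background of these counts too. Of 11 laminin chains, 9 were called lower and 1 higher in HSL than in basal cells, 7 lower in AP than in basal cells, and 6 lower and 2 higher in HSL than in AP. The list medians were -4.07, -2.30 and -1.55. Lamb3, a chain of laminin-332, which binds alpha3-beta1 and alpha6-beta4, was at 17.3, 48.5 and 57.6 CPM in HSL, 52, 88.2 and 95.7 CPM in AP, and 1027, 1227 and 1386 CPM in basal libraries. Lamb2 was not called, at medians of 363, 274 and 309 CPM in the same order.

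Of 12 collagen ligands, 12 were called lower in HSL than in basal cells, 9 lower and 2 higher in AP than in basal cells, and 11 lower in HSL than in AP. The list medians were -5.37, -2.13 and -2.94. Col4a1 of basement membrane collagen was at 6.68, 12.1 and 28.6 CPM in HSL, 63.3, 79.8 and 93.3 CPM in AP, and 616, 1047 and 1277 CPM in basal libraries, and Col4a2 had medians of 7.32, 43.4 and 1010 CPM in the same order. Fibrillar Col3a1 was called higher in AP than in basal cells (0.99 ± 0.31, adjusted p = 0.0146), at medians of 24.1 CPM in HSL, 472 CPM in AP and 236 CPM in basal libraries. Col1a1, Col1a2 and Col3a1 also belong to the fibroblast markers given above. Col3a1 and Dcn were the most abundant of those markers. Unlike Col3a1, Dcn was called lower in AP than in basal cells (-1.46 ± 0.30, adjusted p = 0.000654). Its medians were 17.6 CPM in HSL, 139 CPM in AP and 416 CPM in basal libraries.

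Of 13 RGD and tenascin ligands, 9 were called lower and 2 higher in HSL than in basal cells, 4 and 3 in AP, and 9 and 2 in HSL against AP, with list medians of -2.86, -0.53 and -2.80. The calls for AP against basal, 30.8% lower and 23.1% higher, were near the 23.1% and 21.5% of all genes. Mfge8, an RGD protein of milk fat globules that binds alphav integrins, was at 422, 607 and 1708 CPM in HSL, 7010, 10629 and 14230 CPM in AP, and 1683, 1953 and 2324 CPM in basal libraries. AP libraries all lay above the others, and HSL and basal libraries overlapped. Thbs1, thrombospondin 1, had medians of 55.9 CPM in HSL, 677 CPM in AP and 5710 CPM in basal libraries. Tgfb3, whose latent form is a target of the alphav integrins, had medians of 133, 702 and 302 CPM in the same order and was called higher in AP than in basal cells (1.24 ± 0.21, adjusted p = 0.000117).

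Adhesion genes outside the 35 were described the same way. Of 22 other adaptors, 17 were called lower and 2 higher in HSL than in basal cells, 14 and 2 in AP, and 10 and 3 in HSL against AP, with medians of -2.13, -1.26 and -0.43. Rsu1, a partner of PINCH1, stepped like Parva, with medians of 86 CPM in HSL, 122 CPM in AP and 400 CPM in basal libraries, and was called lower in HSL than in AP (-0.52 ± 0.10, adjusted p = 0.000634). Zyx, the tension-sensitive zyxin, had medians of 115, 160 and 247 CPM in the same order. Actn4, an actin crosslinker, had medians of 1204, 1568 and 2080 CPM, was called lower in HSL than in basal cells (-0.75 ± 0.19, 0.00194) and was not called in AP (-0.33 ± 0.18, 0.163).

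Of 17 adhesion signalling genes, 7 were called lower and 5 higher in HSL than in basal cells, 4 and 3 in AP, and 5 and 4 in HSL against AP, with medians of -0.29, -0.02 and 0.00. In AP against basal the list, at 23.5% lower and 17.6% higher, was near all genes. Nedd9, a paralog of Bcar1, went another way from it, at medians of 83.5 CPM in HSL, 580 CPM in AP and 325 CPM in basal libraries, and was called lower in HSL than in AP (-2.65 ± 0.21, adjusted p = 1.25e-07) and higher in AP than in basal cells (0.67 ± 0.20, 0.0101). Crk and Pak2 had medians of 225 and 249 CPM in HSL, 284 and 211 CPM in AP, and 289 and 175 CPM in basal libraries.

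Of 10 other tetraspanins and basal linkers, 6 were called lower and 2 higher in HSL than in basal cells, 5 and 2 in AP, and 3 and 3 in HSL against AP, with medians of -0.82, -0.54 and -0.29. Cd9, an integrin-associated tetraspanin, was called higher in HSL than in basal cells (1.00 ± 0.13, adjusted p = 2.13e-06), at medians of 2135 CPM in HSL, 1244 CPM in AP and 1122 CPM in basal libraries. Krt14, a keratin reached by hemidesmosomes and also a basal marker, had medians of 9.11, 23.4 and 7225 CPM in the same order, and Sdc4, a syndecan of focal adhesions, 1162, 1561 and 1425 CPM with no call. Of 7 other integrin chains, which are known from leukocytes, 5 passed the filter, and in their 15 contrasts edgeR called 0 (0 at an unadjusted p below 0.05) and DESeq2 called 0 (1 unadjusted). The most abundant, Itgb2, Itgal and Itgae, had medians of 1.87, 4.25 and 0.127 CPM in HSL, 1.75, 2.02 and 0.517 CPM in AP, and 6.8, 1.95 and 0.842 CPM in basal libraries, and Itgam was listed at 0 throughout.

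Markers listed for cells outside the epithelium differed between the populations. The 8 fibroblast markers given above were called lower in HSL than in AP and basal cells, as Itga2, Itga8, Itga11, Itgb8, Lims1, Parva and Tln2 were. For AP against basal, 4 of these markers were called higher and 2 lower, with a median of 0.88, beside 21.5% and 23.1% of all genes. Of those members, Tln2 was called higher there, Parva was called lower, and the others were not called. Whether epithelial cells express the listed markers was not tested, nor was their part in the lower luminal levels of the integrin genes. Of 8 endothelial markers, 7 were called lower and 1, Vwf, higher in HSL than in basal cells, and 8 lower in AP. They summed to 82.5 to 215 CPM in HSL, 44 to 118 CPM in AP and 92.8 to 290 CPM in basal libraries, with Pecam1 at medians of 9.56, 11.9 and 52.1 CPM and Vwf at 81, 26.4 and 52.3 CPM. The 5 erythroid markers summed to 9.36 to 32.4 CPM in HSL, 13.4 to 69.6 CPM in AP and 65.2 to 264 CPM in basal libraries, with Hbb-bs and Hba-a1 the most abundant, Alas2 at 0, and the other 4 called lower in HSL and AP. Of 7 pericyte markers, 6 were called lower and Notch3 higher in HSL, and 5 and 1 in AP. They summed to 77.2 to 152 CPM in HSL, 88.9 to 195 CPM in AP and 38 to 83.5 CPM in basal libraries. Notch3 made up most of the luminal sums, at medians of 99.3, 107 and 11.6 CPM in the same order. Rgs5 had medians of 2.35, 4.21 and 26.8 CPM. Adipocyte markers summed to 10.6 to 58.4 CPM in HSL, 25.4 to 123 CPM in AP and 94.9 to 300 CPM in basal libraries, chiefly Fabp4, while Lep was at or near 0 in luminal libraries. The 6 Schwann cell markers summed to 111 to 125 CPM in HSL, 292 to 661 CPM in AP and 192 to 268 CPM in basal libraries, chiefly Sox10 and Mbp. Skeletal muscle markers, chiefly Mylpf and Ckm, summed to at most 4.16 CPM in HSL, 4 CPM in AP and 4.4 CPM in basal libraries, with Acta1 at 0.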

How the data were processed

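Cells were sorted as described above, and libraries were made from 2 ng of RNA (SMART-Seq V4) and 150 pg of cDNA (Nextera XT, which does not mark strand), per the labels' protocols. The authors deposited whole-number gene counts and RPKM values for 52636 identifiers per library, per the file headers. GRCm38 is the genome build named in the submitters' processing notes. The tools for alignment and counting were not given in the sources used here. The deposited RPKM values were not used. GENCODE M21 named 52489 identifiers, and the other 147, with 0.00303 to 0.00677% of counts, were left out. How reads of overlapping genes were assigned is not known, so levels are uncertain where other genes share a member's span. Beside the shares given above, this was 16.8% for Itgb4, 11.4% for Itga6, 10.8% for Fermt2, 9.3% for Cd151 and 7.1% or less for all others.

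Counts were fitted with edgeR 4.0.16 in R 4.3.3. The filter filterByExpr with a minimum count of 10 left 16471 genes, which were scaled by TMM and fitted by robust quasi-likelihood, with the population as the only term, to all 18 libraries, with Benjamini-Hochberg adjustment. The fitting script was tested on simulated data. Ratios had 0.5 added to each count. CPM were divided by exon length for the levels per kilobase and the chain shares. The count ratios and the choice of the most abundant genes did not use exon length. A ratio near 1 is therefore not equal abundance, and ratios are compared between populations only. Alternatives were DESeq2 1.42.0, limma-voom (limma 3.58.1), other scaling, no filter, a block, fewer samples and fewer populations. The members, lists, ratios and alternatives were chosen with earlier results of these data known. All members are named, with the 3 most abundant genes of each pathway list and the 2 of each marker list, except 1 ligand not reported here.

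Libraries of the same sample number tended to deviate together from their population means. The correlation across genes was 0.13 to 0.63 (median 0.27) over 18 pairs. For different numbers it was -0.41 to 0.22 (median -0.07), so the ranges overlapped. The main fit and the permutation tests did not use this pairing, while the block and the sign flips did. The labels do not tie a number to an animal, and p-values measure the spread between these samples. No libraries of a population agreed within counting error (chi-square per degree of freedom of 49.3 or more). The values of 1 gene among the listed ligands are not reported here.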

Additional observations from a re-analysis of the deposited data

Results flagged for a closer look

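In each population, the CPM of every member was searched for a library far from the other 5, by the gap to the nearest value as a share of the range. Chance flags about 1 in 20 groups, and 9 of 105 groups (8.57%) were flagged, 6 of them in sample 1. In HSL libraries, sample 1 was high for Itga10 at 1.06 CPM (others 0.44 to 0.653), for Itgb7 at 5.84 CPM (others 0 to 1.98) and for Tln2 at 19.1 CPM (others 5.88 to 8.16). In AP libraries, sample 1 was low for Itgb5 at 157 CPM (others 308 to 369) and for Itgb6 at 22.9 CPM (others 71 to 96.6). In basal libraries, sample 1 was low for Itga11 at 0.448 CPM (others 2.58 to 3.03). Sample 2 was high for Itga9 in HSL at 23.8 CPM (others 3.73 to 10.2). Sample 3 was high in AP for Itga11 at 4.9 CPM (others 0.944 to 2.32) and for Bcar1 at 109 CPM (others 75.6 to 87.7).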

How the results depend on the processing

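No member that was called changed direction under any of the 15 alternatives run for each contrast. Scaling by total counts gave a median over all genes of 0.14 for AP against basal, where TMM gave -0.00, and of -0.18 for HSL against AP, where TMM gave -0.01. With it, 4279 genes were called higher and 3147 lower for AP against basal (3544 and 3812 with TMM), and 2234 higher and 4043 lower for HSL against AP (3256 and 3315 with TMM). The median of the members was then -0.99 for AP against basal and -0.47 for HSL against AP, where 12 members were called lower and 6 higher. Itga10 (-0.00), Itgb1 (-0.07) and Vcl (-0.03), uncalled, changed sign there.

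With samples 1 to 3 alone, 9 member calls were lost for HSL against basal, 6 for AP against basal and 9 for HSL against AP. In that fit 1 member was called higher for HSL against basal and 1 for AP against basal. In HSL against AP, 4 were then called lower and 3 higher, with a median of -0.11. These counts are not set beside shares of all genes in each direction. All genes called in either direction were 5674 for HSL against basal, 3718 for AP against basal and 1491 for HSL against AP, with fewer samples in the fit. With all samples they were 9621, 7356 and 6571 in the same order. With samples 4 to 6 alone the members had a median of -1.26 for HSL against basal, and of 0.02 for HSL against AP. Without sample 6, the calls of Itga10 (1.70, adjusted p = 0.06) and Tln2 (0.81, 0.0584) as higher in AP than in basal cells were lost in edgeR.

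With sample number as a replicate block, 26 members were called lower and 4 higher for HSL against basal, 23 and 2 for AP against basal and 12 and 12 for HSL against AP. All genes called with it were 35.5% lower and 31.8% higher, 28.4% and 26.7%, and 25.3% and 25.6% in the same order of contrasts. Sign flips within sample numbers, the block for ratios, called 18 of 27, again with no background from other pairs. Each of these calls means that every sample number differed in the same direction, which gives the smallest p the flips can reach. The flips therefore do not rank the called ratios.

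Among uncalled results, Itgb7 for AP against basal, 0.03 in all samples, was -0.96 with limma-voom, -0.91 with the block, -0.35 to 0.21 without 1 sample and -1.80 with samples 4 to 6 alone, and its HSL against AP was 0.07 there. With samples 1 to 3 alone, Itga11 for AP against basal was 0.45 and Itga10 for HSL against AP -0.21. Without 1 sample, HSL against basal ranged from -0.02 to 0.14 for Itgb5 and from -0.23 to 0.02 for the ratio Fermt1/Fermt2. The cause was not tested.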
